A study of Mus musculus with 16 samples.

Results

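Nr4a1 (also called Nur77) and Nr4a2 (Nurr1) encode orphan nuclear receptors of the NR4A family, and both were followed across the 6 groups of a study of thymocyte negative selection. All probe sets that the platform annotation assigned to 1 of these genes alone were taken. There were 3 such probe sets, 1 for Nr4a1 (102371_at) and 2 for Nr4a2 (92248_at and 92249_g_at), out of 10833 probe sets assigned to a single gene. They stood for 2 of the 8251 genes so measured. Nr4a3, which completes the family, is not analysed here.

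NR4A receptors bind DNA without a known natural hormone ligand, and their activity is set largely by how much of them the cell makes. In T cells they are immediate-early genes: engagement of the T cell receptor (TCR) raises calcium, releases MEF2 factors from class II histone deacetylases on the Nr4a1 promoter and switches the gene on within hours. In the thymus, Nr4a1 is widely used as a reporter of TCR signal strength and has been linked to the death of self-reactive cells during negative selection.

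The study measured total RNA of CD4+CD8+ thymocytes, the stage at which selection begins, taken from thymus lobes of mouse fetuses kept in organ culture, on 16 Affymetrix arrays. BDC2.5 mice carry a transgenic TCR from a CD4 T cell clone that attacks pancreatic islets. NOD is the strain prone to autoimmune diabetes, and B6g7 combines its class II MHC haplotype with a C57BL/6 background, so that both strains can present the antigen of this receptor. The groups were BDC2.5 on B6g7 with no peptide (n = 3), BDC2.5 on B6g7 after 16 h of peptide (n = 3), B6g7 without the transgene (wild-type, n = 2), and the same 3 groups on NOD (n = 3, 3 and 2). The labels name no peptide, dose, fetal age or sorting method, and do not say whether wild-type lobes were given peptide. They do not state that arrays of a group came from separate animals or cultures, so the p-values may measure technical spread only. Wild-type cells differ from BDC2.5 cells in the whole TCR repertoire, not in a single signal.

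The labelled cell type was checked against its markers. Cd8a read 1074 to 5146 over the 16 arrays, Cd8b1 415 to 3382, Rag1 543 to 4745, Cd4 158 to 327 and Cd3e 213 to 319, while the median probe set of an array lay between 54.7 and 59.1. Arrays differed in a way the groups do not explain. In 6 arrays, namely number 3 of each BDC2.5 group and number 2 of each wild-type group, the 3′ minus 5′ difference of the actin control (Actb, log2) was 1.36 to 1.96, against 2.24 to 3.27 in the other 10. These 6 arrays are called the low-gradient arrays below, each BDC2.5 group holds 1 of its 3 and each wild-type group 1 of its 2, and results that rest on them are given with and without them.

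Nr4a1 lies at chr15:101253902-101274795 (GRCm38.p6, RefSeq). The 250 bases before its annotated start, at chr15:101266596-101266845 on the plus strand and within the span of the gene, are shown because the gene's transcript answered peptide here and this stretch holds a repeated element known from its induction. Nr4a2 lies at chr2:57106830-57124003, and the matching 250 bases are at chr2:57124004-57124253 on the minus strand. Capitals mark TGCGTCA, a CRE-like element, or otherwise the CRE half-site TGACG, on either strand (reverse complements TGACGCA and CGTCA). Both sequences are from RefSeq and read 5′ to 3′.
Nr4a1: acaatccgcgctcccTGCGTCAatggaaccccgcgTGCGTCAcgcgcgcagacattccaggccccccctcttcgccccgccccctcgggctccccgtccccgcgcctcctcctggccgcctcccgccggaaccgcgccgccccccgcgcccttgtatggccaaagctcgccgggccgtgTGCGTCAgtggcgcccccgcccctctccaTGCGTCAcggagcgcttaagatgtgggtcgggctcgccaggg
Nr4a2: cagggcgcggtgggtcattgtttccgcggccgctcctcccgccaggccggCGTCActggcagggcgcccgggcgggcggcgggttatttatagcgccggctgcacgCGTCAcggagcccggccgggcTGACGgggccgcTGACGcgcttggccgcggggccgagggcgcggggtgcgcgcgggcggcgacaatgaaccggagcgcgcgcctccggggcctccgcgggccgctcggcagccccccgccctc

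The Nr4a1 window holds TGCGTCA 4 times, starting 235, 215, 71 and 42 bases before the start, and the Nr4a2 window holds it 0 times. Of 32851 windows of this length in the RefSeq table, 1.75% hold the element at least once. The half-site TGACG occurs 4 times in each window, against 17.8% of all windows with at least 1. In Nr4a1 all 4 lie inside the TGCGTCA elements, and in Nr4a2 they start 200, 144, 123 and 111 bases before the start. The full palindrome TGACGTCA is in neither window (1.55% of all windows), nor is AAAGGTCA, the element that NR4A monomers bind (1.34%). A match to the MEF2 element was found 0 times in the Nr4a1 window and 1 time in the Nr4a2 window, 167 to 158 bases before the start (2.92% of all windows). These are matches of letters within the 250 bases only. Sequence outside them was not searched, and binding was not measured. The position of the probe sets on the transcripts was not used here.

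Nr4a1 was highest in peptide-treated BDC2.5 cells of both strains. On B6g7, its intensity after 16 h was 1136, 854 and 1759 in the arrays numbered 1, 2 and 3, against 332, 256 and 236 with no peptide. On NOD, it was 495, 398 and 847 after 16 h, against 174, 279 and 124 with no peptide. Wild-type cells gave 150 and 133 on B6g7 and 191 and 127 on NOD. All 6 peptide arrays thus lay above all 10 others, the lowest peptide array reading 398 and the highest of the others 332. How many of all probe sets separate the arrays in this way was not counted, so the separation alone does not set Nr4a1 apart.

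**Figure D1:**
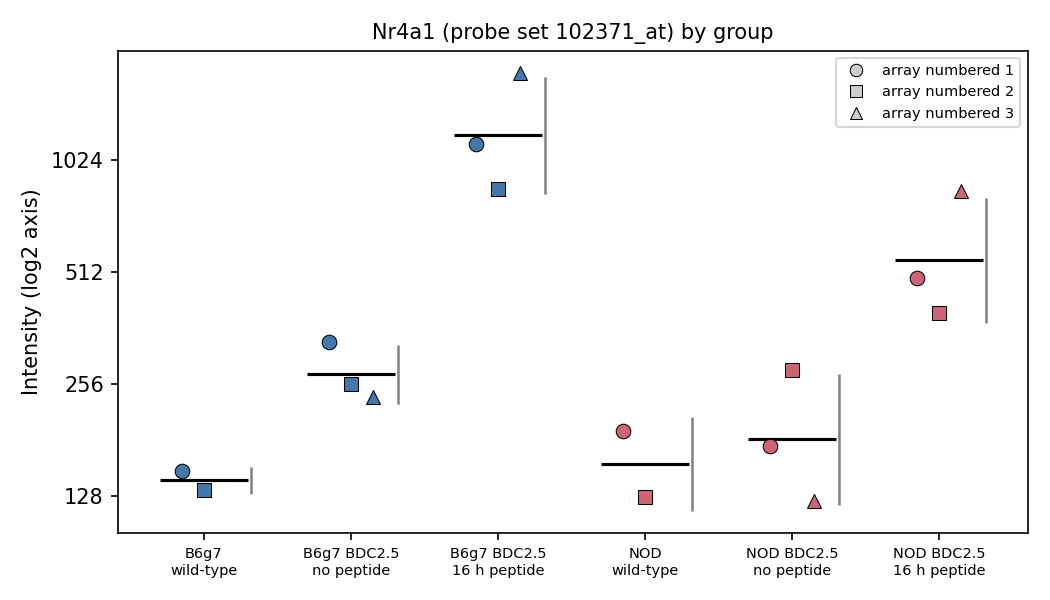
Intensity of Nr4a1 (probe set 102371_at, log2 axis) in each of the 16 arrays by group, with the symbol giving the number of the array in its group. Horizontal lines are geometric means, grey bars span 1 SD of the log2 values to either side, and the 6 peptide arrays (398 to 1759) all lie above the other 10. The share of all probe sets that do so was not counted.

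The groups ranked, by geometric mean intensity, as peptide-treated B6g7 (1195; SD of log2 0.52, n = 3), peptide-treated NOD (550; 0.56, n = 3), untreated BDC2.5/B6g7 (272; 0.26, n = 3), untreated BDC2.5/NOD (182; 0.58, n = 3), wild-type NOD (156; 0.42, n = 2) and wild-type B6g7 (141; 0.12, n = 2). The first 3 groups of this order were separate from each other. Peptide-treated B6g7 was 2.17-fold above peptide-treated NOD, with neighbouring arrays at 854 and 847, and peptide-treated NOD was 2.03-fold above untreated B6g7, with neighbouring arrays at 398 and 332. Below that, each group overlapped the next, so untreated NOD and both wild-type groups had no order beyond their spread. Of all probe sets, 669 (5.39%) were likewise lower without overlap in peptide-treated NOD than in peptide-treated B6g7. For peptide-treated NOD against untreated B6g7 that share was not counted.

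The response to peptide was first tested over both strains together. In limma, Nr4a1 rose by a mean of 1.87 ± 0.25 on the log2 scale (± SE, 3.65-fold, 95% interval 1.33 to 2.40, adjusted p = 0.0138). At an adjusted p under 0.05 it was 1 of 3 probe sets called among 12422 (0.0242%). In limma 445 had an unadjusted p under 0.05, fewer than the 5% of tests that fall there by chance alone. The same holds for the counts over all probe sets at that level given below, except for the strain difference at 16 h. The others called were those of Itm2a, a thymocyte membrane protein induced on selection (1.74 ± 0.22, adjusted p = 0.0136), and the dimmer probe set of Gadd45b, a stress-response gene (1.84 ± 0.24, adjusted p = 0.0136). Without the 6 low-gradient arrays the mean response of Nr4a1 was 1.38 (adjusted p = 0.0808). The call was also lost without array 2 (1.85, adjusted p = 0.0712) or array 3 (1.82, 0.0649) of untreated B6g7, array 1 of peptide-treated B6g7 (1.89, 0.0574) or array 1 of untreated NOD (1.85, 0.0705). Pairing same-numbered arrays, with a replicate block within each strain of the 12 BDC2.5 arrays (a fit added after seeing the data), left the response at 1.87 with an adjusted p of 0.125, while the planned replicate block over all arrays gave 0.0197. That planned block joins the wild-type arrays numbered 2, which are low-gradient, with the BDC2.5 arrays numbered 2, which are not.

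Within B6g7 the difference of Nr4a1 between peptide and no peptide was 2.14 ± 0.35 (4.40-fold, 95% interval 1.38 to 2.89), with a limma adjusted p of 0.107. This comparison called 1 probe set of 12422 (0.00805%), which was not Nr4a1, and 422 had an unadjusted p under 0.05. Without the low-gradient arrays it was 1.76 (adjusted p = 0.137). It passed the threshold with these arrays as a block (2.14, adjusted p = 0.0426) and without array 2 of peptide-treated B6g7 (2.38, adjusted p = 0.0406). Within NOD the difference was 1.60 ± 0.35 (3.02-fold, 95% interval 0.84 to 2.35, limma adjusted p = 1.0). No probe set was called in NOD (0.0%), where 207 had an unadjusted p under 0.05. Without the low-gradient arrays the difference in NOD was 1.01 (adjusted p = 1.0).

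The peptide groups did not overlap the untreated groups for Nr4a1 in either strain. In B6g7, 432 of 12422 probe sets (3.48%) were higher without overlap, and all 3 NR4A probe sets were among them. In NOD, 290 (2.33%) were higher without overlap, and of the 3 only that of Nr4a1 was. Same-numbered arrays gave 16 h over no-peptide ratios for Nr4a1 of 3.42, 3.34 and 7.47 on B6g7 and 2.84, 1.43 and 6.81 on NOD. The ratio was above 1 in 6 of 6 pairs, which any pairing of groups without overlap gives, so this count adds no evidence. In both strains the largest ratio came from the arrays numbered 3, which are low-gradient arrays.

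**Figure D2:**
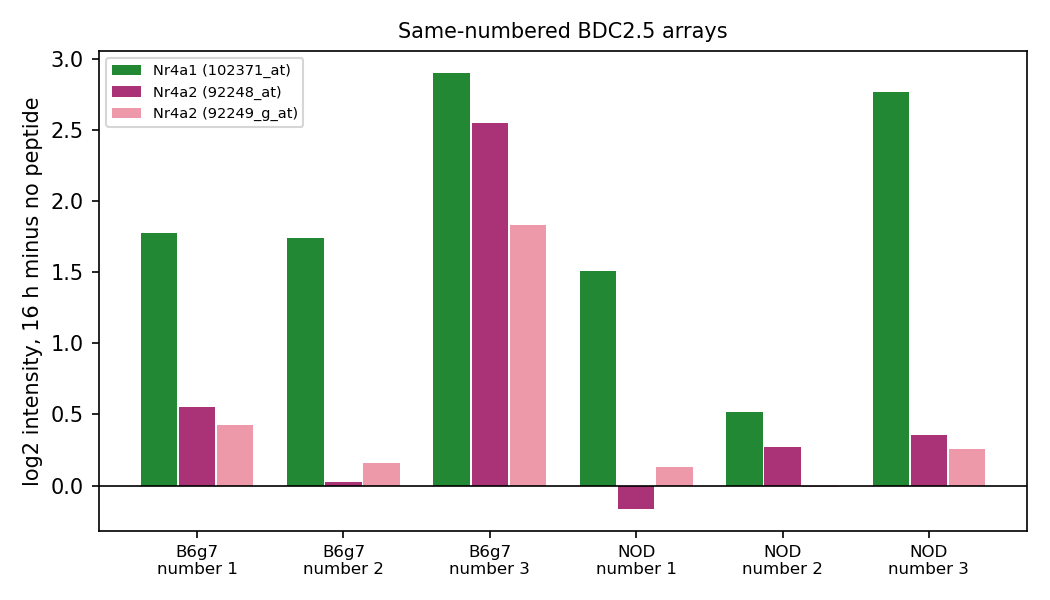
Difference in log2 intensity, 16 h of peptide minus no peptide, between BDC2.5 arrays that share a number, for the probe set of Nr4a1 and both of Nr4a2 (no error bar, since each bar is 1 pair of arrays). Nr4a1 is above 0 in all 6 pairs, which any pairing of groups without overlap gives, and largest in number 3 of each strain. Nr4a2 stands out in B6g7 number 3 (5.85-fold for 92248_at, against 0.893 to 1.47-fold in the other 5 pairs).

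The responses of Nr4a1 in the 2 strains could not be resolved from each other. The difference between the responses, NOD minus B6g7, was -0.54 ± 0.50 in limma (95% interval -1.61 to 0.53, adjusted p = 1.0). This comparison called no probe set (0.0%), and 147 had an unadjusted p under 0.05. Leaving out 1 array moved the value between -0.85 (without array 3 of peptide-treated NOD) and -0.23 (without array 2 of untreated NOD), and it was -0.26 without array 3 of peptide-treated B6g7 and -0.31 without array 2 of peptide-treated NOD.

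After 16 h of peptide, Nr4a1 read 398 to 847 on NOD and 854 to 1759 on B6g7. The strain difference, NOD minus B6g7, was -1.12 ± 0.35 (0.461-fold, 95% interval -1.87 to -0.36, limma adjusted p = 0.447). It was not among the 61 probe sets called (0.491%), and 669 probe sets (5.39%) were lower in NOD without overlap, so lack of overlap alone does not set Nr4a1 apart. Without the low-gradient arrays the difference was -1.15 (adjusted p = 0.187), and without the B6g7 array numbered 3 it was -0.84. For the strain difference at 16 h, 705 of 12422 probe sets had an unadjusted p under 0.05 in limma, more than the 5% expected by chance alone. Of 15 myeloid and dendritic markers measured, 12 were lower in NOD than in B6g7 at 16 h and 5 had an unadjusted p under 0.05, among them Tyrobp (-0.69 ± 0.17) and C1qa (-0.32 ± 0.12). None was called, and their sums were 647 to 705 in NOD and 793 to 842 in B6g7. Of these 15, 11 had a geometric mean below the lowest array median (54.7), where a level cannot be told from background. The part of these markers in the Nr4a1 difference was not tested. With no peptide, NOD was lower by less than the spread (-0.58 ± 0.35, adjusted p = 1.0, 33 probe sets or 0.266% called), and the value was -0.30 without array 3 and -0.88 without array 2 of untreated NOD. In wild-type cells the difference was 0.15 ± 0.43 (adjusted p = 1.0, 11 probe sets or 0.0886% called).

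BDC2.5 cells with no peptide were set against wild-type cells of the same strain. These comparisons share their untreated arrays with the peptide responses, so the values of both are given side by side and not related to each other. On B6g7 Nr4a1 read 236 to 332 in BDC2.5 cells and 133 to 150 in wild-type cells, with no overlap. The difference was 0.95 ± 0.39 (1.93-fold, 95% interval 0.10 to 1.79), with an unadjusted p of 0.0307 and a limma adjusted p of 1.0. There, 10 probe sets (0.0805%) were called, 185 had an unadjusted p under 0.05, and 515 (4.15%) were higher without overlap. Without the low-gradient arrays the difference was 0.96. On NOD the groups overlapped, at 124 to 279 in BDC2.5 and 127 to 191 in wild-type cells, and the difference was 0.22 ± 0.39 (95% interval -0.62 to 1.07, adjusted p = 1.0, 7 probe sets or 0.0564% called).

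Nr4a2 stayed dim in all but 1 array. Both of its probe sets read below the median probe set of the array in 15 of 16 arrays, and with no detection values used here a level in those arrays cannot be told from background. With 92248_at, the 15 arrays other than number 3 of peptide-treated B6g7 read 21.9 to 36.0, and with 92249_g_at they read 20.8 to 31.5. In the remaining array the probe sets read 145 and 84.3.

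**Figure D3:**
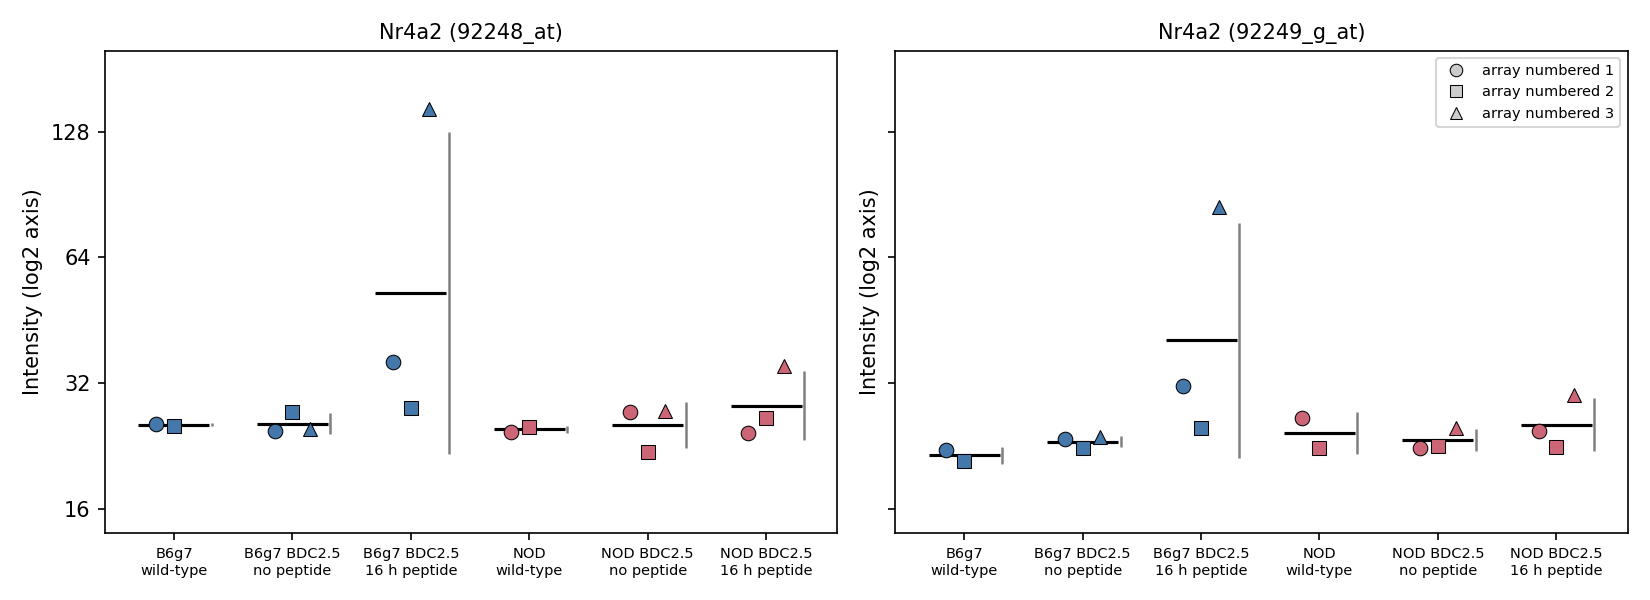
Intensity of Nr4a2 by group (log2 axis), with 92248_at on the left and 92249_g_at on the right, symbols by array number, geometric means as lines and 1 SD of log2 to either side as grey bars. A single array, number 3 of peptide-treated B6g7, stands above the rest, at 145 and 84.3.

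By group, 92248_at read 36.0, 27.8 and 145 in peptide-treated B6g7 and 24.5, 27.3 and 24.9 in untreated B6g7. On NOD it read 24.3, 26.4 and 35.1 with peptide and 27.2, 21.9 and 27.4 without. Wild-type arrays read 25.6 and 25.3 on B6g7 and 24.4 and 25.1 on NOD. The peptide arrays of B6g7 lay above the untreated ones by a narrow margin (27.8 against 27.3), and those of NOD overlapped.

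The companion probe set 92249_g_at gave 31.5, 24.95 and 84.3 in peptide-treated B6g7 against 23.5, 22.3 and 23.7 untreated. On NOD it gave 24.5, 22.5 and 29.9 with peptide and 22.4, 22.6 and 25.01 without, and wild-type arrays gave 22.1 and 20.8 on B6g7 and 26.4 and 22.3 on NOD. The same 3 arrays were highest with both probe sets, namely numbers 3 and 1 of peptide-treated B6g7 and number 3 of peptide-treated NOD, and they are among the 4 arrays with the most Nr4a1. Outside number 3 of peptide-treated B6g7 the readings cannot be told from background, so this match does not show that Nr4a2 followed Nr4a1. Over the 16 arrays the log2 values of both probe sets correlated at r = 0.976, and at 0.760 without the outstanding array. They read the same transcript, so this describes the probes and is no independent evidence.

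No Nr4a2 probe set was called in any of the 9 comparisons. The peptide response in B6g7 was 1.04 ± 0.42 with 92248_at (95% interval 0.14 to 1.95) and 0.81 ± 0.31 with 92249_g_at (0.14 to 1.47), both with a limma adjusted p of 1.0. Leaving out the outstanding array took these to 0.31 and 0.28. In NOD the responses were 0.15 ± 0.42 and 0.13 ± 0.31, and the means over both strains were 0.60 ± 0.30 and 0.47 ± 0.22 (adjusted p = 0.998 for both). The difference between the strains' responses was -0.89 ± 0.59 and -0.68 ± 0.44. Without the outstanding array the means were 0.23 and 0.20, and the differences between strains -0.16 and -0.15.

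Between strains after peptide, Nr4a2 differed by -0.90 ± 0.42 with 92248_at and -0.67 ± 0.31 with 92249_g_at (limma adjusted p = 0.880 and 0.868). Without the outstanding array these were -0.17 and -0.14. With no peptide both probe sets differed by no more than 0.01 (-0.01 ± 0.42 and 0.01 ± 0.31). In wild-type cells the probe sets went opposite ways, -0.04 ± 0.51 and 0.18 ± 0.38, in each case without overlap of the 2 arrays a strain, as did 14.3% of probe sets lower and 6.55% higher in NOD. The transgene differences were 0.01 ± 0.47 and 0.11 ± 0.35 on B6g7 and 0.03 ± 0.47 and -0.06 ± 0.35 on NOD.

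**Figure D4:**
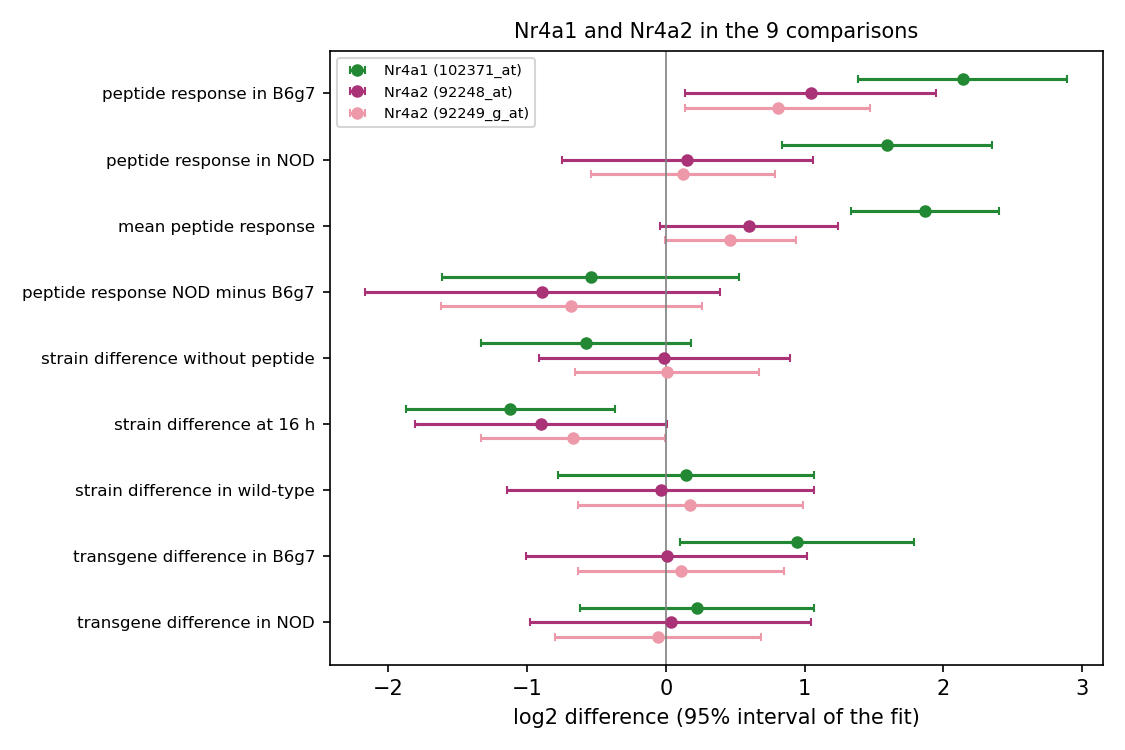
Log2 differences of the 3 NR4A probe sets in the 9 comparisons, with 95% intervals of the limma fit (strain differences are NOD minus B6g7, transgene differences BDC2.5 without peptide minus wild-type). For Nr4a1 the peptide responses (2.14, 1.60 and their mean 1.87) lie farthest from 0, and the Nr4a2 intervals for the response in NOD include 0.

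The difference Nr4a1 minus Nr4a2 (92248_at) was also taken within each array. Since Nr4a2 cannot be told from background in 15 of 16 arrays, this largely restates the Nr4a1 values, and it does not show whether the transcripts of both genes changed to an unequal degree. With peptide this difference was larger by 1.09 on B6g7 and 1.44 on NOD, a mean of 1.27 on the log2 scale. The exact two-sided permutation p was 0.01 over 400 assignments of arrays within strains, where the smallest possible is 0.005. The group means of the difference were 4.50 and 3.41 with and without peptide on B6g7 (SD 0.79 and 0.30, n = 3 each) and 4.29 and 2.84 on NOD (0.34 and 0.76, n = 3 each). Without the low-gradient arrays it was larger by 1.21, with the smallest p those arrays allow (exact permutation, 0.0556).

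The array in which Nr4a2 stood out also carried other high genes. There, the deposited intensity of 92248_at was 4.04 times that of the next array of its group, and that of 92249_g_at 2.68 times. The next array reads near background (36.0 and 31.5), so these ratios describe intensities and not the transcript. For Nr4a1 the ratio was 1.55, which 694 of 12422 probe sets (5.59%) matched or exceeded. Genes high in the same array against the next of the group, named after their values were seen, included the interferon-induced GTPases Iigp1 (22.04-fold), Gbp2 (9.16-fold), Ifi47 (6.16-fold) and Igtp (5.73-fold). Irf8 (8.64-fold), the cell-cycle gene Ccnd2 (7.31-fold), Xist (7.09-fold), the cytokine gene Il4 (5.01-fold) and the costimulatory receptor gene Icos (4.92-fold) were also high there. Summed intensities of marker lists in that array were the lowest of its group for double-positive thymocytes (6985; group 6985 to 11331) and the highest for NK and innate lymphocytes (827; group 558 to 827). The myeloid sum was 837 (group 793 to 842) and the B cell sum 655 (group 655 to 741). Geometric means below the lowest array median (54.7) were found for 4 of 8 NK and innate, 11 of 15 myeloid and 3 of 9 B cell markers. Among the NK and innate markers Gzma was the brightest (geometric mean over the 16 arrays 330, the next being Fcgr3 at 68.4). It therefore weighs most in their sum. The part of these genes and sums in the Nr4a2 value was not tested.

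Nr4a1 was next placed beside the genes whose pattern was most like its own, among 4831 genes of at least median brightness. Over the 16 arrays these were Bcl2l11 (Pearson r = 0.933), which encodes the pro-apoptotic protein Bim, Ephx1 (0.923), an epoxide hydrolase, Relb (0.921), an NF-kB subunit, Cd320 (0.912), Cnn2 (0.908), a calponin, and Sdhaf1 (0.906). Bcl2l11 had geometric mean intensities of 644 and 424 in peptide-treated B6g7 and NOD, 292 and 255 in untreated BDC2.5 cells and 222 and 299 in wild-type cells. The arrays share groups and the low-gradient split, so these values are descriptions. Over the 10 arrays with no 16 h of peptide the same genes gave 0.541, 0.80, 0.831, 0.801, 0.790 and 0.850, the lowest being Bcl2l11. Over the 6 group means the closest were Sdhaf1 (0.994), Lcp1 (0.994), Gnpnat1 (0.991), Cd320 (0.989), Ppa1 (0.987) and Nfkb2 (0.984), of which Sdhaf1 and Cd320 were on both lists.

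**Figure D5:**
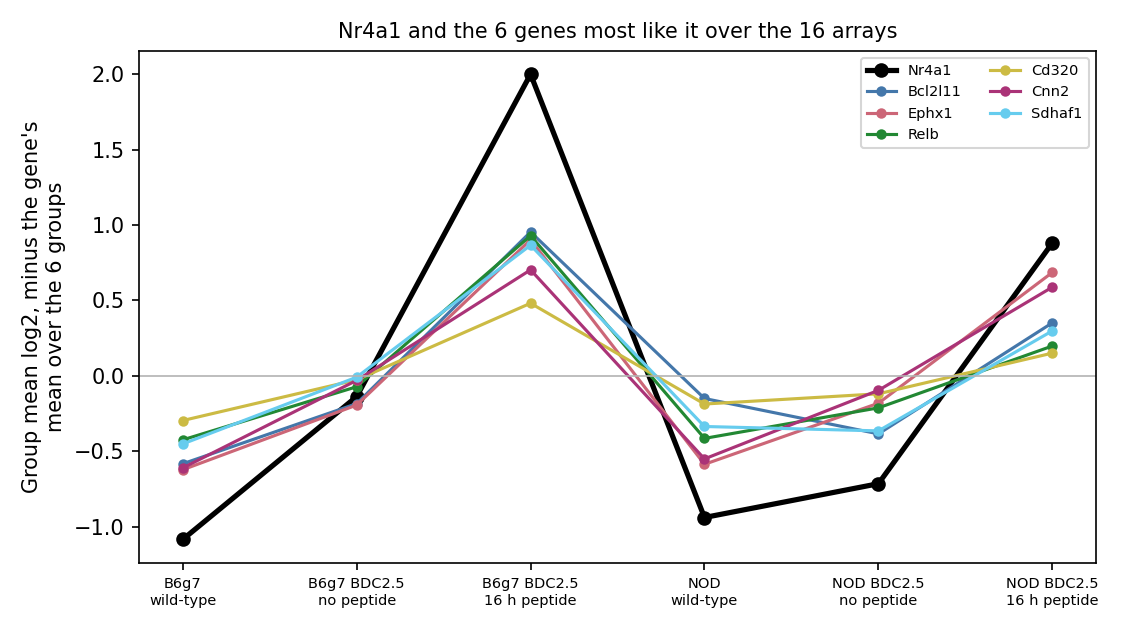
Group means of log2 intensity, each gene centred on its own mean over the 6 groups, for Nr4a1 (black) and the 6 genes most like it over the 16 arrays. All have their highest point in peptide-treated B6g7, where Nr4a1 lies farthest above its mean, and the genes were chosen for this likeness.

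For Nr4a2 (92248_at) the closest genes over the 16 arrays were Birc3 (r = 0.940), an inhibitor of apoptosis, Wdr43 (0.928), Mdn1 (0.921), Ccl8 (0.917), Rsl1d1 (0.906) and Cyth3 (0.904). Without the outstanding array the values were 0.592, 0.250, 0.531, 0.735, 0.285 and 0.716. The value fell most for Wdr43 and Rsl1d1. Over the 10 arrays with no 16 h of peptide the same genes gave 0.644, 0.077, -0.372, 0.400, -0.488 and 0.624. Outside that array Nr4a2 cannot be told from background, so values without it do not show whether the transcripts were alike. Over the 6 group means the closest genes were Slc19a1 (0.994), Ccl17 (0.991), Cars (0.988), Shmt1 (0.988), Vars (0.987) and Yars (0.986), the last a tRNA synthetase as are Cars and Vars. Leaving array 3 out of the group mean of peptide-treated B6g7 gave, in the same order, 0.929, 0.495, 0.982, 0.954, 0.902 and 0.933, the lowest being Ccl17. All Nr4a2 means are then near background, so the same limit applies. None of these genes was among those closest to Nr4a1.

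Other genes of the pathway were read from lists, in the mean peptide response and with the brightest probe set of each gene. None of the brightest probe sets was called there, though the dimmer one of Gadd45b, a gene on 2 of the lists, was (adjusted p = 0.0136). The median of all probe sets was -0.02. Of 25 further TCR immediate-early genes 22 were measured, 17 were higher and 5 lower with peptide, 10 had an unadjusted p under 0.05 and the median was 0.15. The 4 with the smallest p were Nab2, a corepressor of Egr factors (0.60 ± 0.13, adjusted p = 0.308), Irf4 (0.66 ± 0.15, adjusted p = 0.407), Gadd45b (0.67 ± 0.20, its brightest probe set) and the transcription factor gene Egr2 (1.12 ± 0.35), none past the threshold in limma. The highest log2 difference among these 22 was 1.12. Geometric means of 8 of the 22 lay below the lowest array median (54.7), where a level cannot be told from background. Nab2 and Irf4 (49.6 each) were among them. The dimmer probe set of Gadd45b, which was called (1.84 ± 0.24), is not counted here.

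Of 25 genes for signals upstream of Nr4a1, 20 were measured, with 8 higher, 12 lower and a median of -0.01. Those with the smallest p were Nfatc1, a calcium-dependent transcription factor (1.11 ± 0.29, limma adjusted p = 0.554), Ppp3ca, a catalytic subunit of calcineurin (0.44 ± 0.14), Hdac7, a class II deacetylase known to hold Nr4a1 silent (-0.33 ± 0.13), and Map2k5, the kinase above ERK5 (-0.31 ± 0.17). Of 10 partners and cofactors 7 were measured, 3 higher and 4 lower, and none had an unadjusted p under 0.05. Among them were Akt1, a kinase that phosphorylates Nr4a1 (-0.23 ± 0.12), the coactivator Ncoa3 (0.07 ± 0.10) and the retinoid X receptors Rxra (-0.06 ± 0.13) and Rxrb (0.06 ± 0.18), with which NR4A proteins pair. Geometric means below the lowest array median (54.7), where a level cannot be told from background, were found for 5 of the 20 upstream genes. They were also found for 3 of the 7 partners and cofactors.

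Of 20 genes of negative selection and death 16 were measured, with 11 higher and 5 lower, 5 at an unadjusted p under 0.05 and a median of 0.09. Bcl2l11 differed by 0.94 ± 0.18 (limma adjusted p = 0.173), Pdcd1, the gene of the inhibitory receptor PD-1, by 1.25 ± 0.27 (adjusted p = 0.326) and Fasl, the Fas ligand gene, by 0.26 ± 0.07 (adjusted p = 0.554). Of these 16, 4 had a geometric mean below the lowest array median (54.7), among them Fasl (23.7). The rest of the nuclear receptor superfamily was mostly dim, with 27 of the 36 measured genes below the lowest array median (54.7), where a level cannot be told from background. Of 46 listed genes 36 were measured, 8 higher and 28 lower, 0 with an unadjusted p under 0.05, and all between -0.09 and 0.14 around a median of -0.02. At these ends were Nr2f2 (0.14) and Nr1d1 (-0.09, named after its value was seen), and the glucocorticoid receptor gene Nr3c1 stood at -0.07 ± 0.05. Nr2f2, Nr1d1 and Nr3c1 were among the dim genes (geometric means 20.1, 48.2 and 12.1), so these values do not show whether their transcripts changed.

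Markers of the double-positive stage were read beside Nr4a1. Of 15 listed, 10 were measured, 9 were lower and 1 higher with peptide, 4 had an unadjusted p under 0.05, none was called, and the median was -0.44. Examples were Rag2 (-0.74 ± 0.26), Dntt (-0.64 ± 0.19) and Cd8a (-0.54 ± 0.25). Their summed intensity was 6985 to 11331 in peptide-treated and 11378 to 13289 in untreated B6g7, 8758 to 9738 and 9643 to 14687 in the same groups of NOD, 15750 to 19434 in wild-type B6g7 and 12548 to 17603 in wild-type NOD. In B6g7 the 3 groups did not overlap, and their order was the reverse of that of Nr4a1. In NOD the sums with and without peptide overlapped, and the Nr4a1 readings did not. Untreated NOD was below untreated B6g7 in Nr4a1 (182 against 272) and in the median sum (10981 against 12317). The sum does not stand for its members in that comparison. Of the 10 measured, 6 were higher in NOD and 4 lower, with a median of 0.095 and a lowest value of -1.89. The part of a changed cell makeup in the Nr4a1 values was not tested, and in these bulk samples fewer cells of a type cannot be told apart from less RNA per cell.

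Markers of other cell types that a thymus lobe can hold were read in the same way. The 15 myeloid and dendritic markers summed to 793 to 842 in peptide-treated B6g7 against 667 to 778 untreated, without overlap. Of these 15, 11 had a geometric mean below the lowest array median (54.7), where a level cannot be told from background. In the mean response C1qa was at 0.26 ± 0.08 and the dim Tyrobp (geometric mean 38.1) at 0.27 ± 0.12. In NOD the sums of the myeloid and dendritic markers overlapped, at 647 to 705 with and 658 to 811 without peptide. The Nr4a1 readings did not overlap between those groups. A sum in which 11 of 15 members cannot be told from background does not show what part such cells had in them. For NK and innate lymphocytes (8 measured), erythroid cells (6), B cells (9), epithelium of the thymus (9), and mesenchyme with endothelium (11), the summed ranges of peptide-treated and untreated arrays overlapped in both strains. In the same order, 4, 5, 3, 5 and 5 of their members were below that lowest array median. In the mean response 5, 2, 3, 4 and 4 of their members were higher and 3, 4, 6, 5 and 7 lower, as were 7 and 8 of the myeloid markers, and none was called in limma. The medians of these 6 lists lay between -0.04 (B cells) and 0.06 (NK and innate lymphocytes). Nr4a1 is itself made by many cell types, and their part in its level was not tested.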

How the data were processed

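The values deposited by the authors are linear intensities, 1 for each probe set on each array. Summary, background correction and scaling are not given in the sources used here, and the deposited scale was kept, since array medians lay between 54.7 and 59.1. Intensities were taken to log2 with no pseudocount, computed here from the deposited values. Of 12488 probe sets, 66 controls were left out and 12422 tested. Of these, 10833 had 1 gene symbol in the platform annotation, 396 several and 1193 none.

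Testing used R 4.3.3 with limma 3.58.1 (lmFit with 1 mean per group over all 16 arrays, contrasts.fit, eBayes with trend, 10 residual and 3.6 prior degrees of freedom). Benjamini-Hochberg adjustment ran within each comparison over all 12422 probe sets, with calls made at an adjusted p under 0.05, two-sided. The steps were tested on simulated data. The number of arrays limits the precision.

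The members, the lists and the array split by actin gradient were chosen with earlier results of these data known, so no list is independent evidence. The text names all member probe sets, the 6 genes most correlated with each gene (brightest probe set, at least median brightness), from each list at most the 4 genes of smallest p, and Itm2a and Gadd45b. For most lists, fewer are named. Promoter sequences came from the RefSeq table (GRCm38.p6), where both genes matched.

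The labels number the arrays. Deviations from the group means, correlated over probe sets, were 0.639, 0.249 and 0.600 between same-numbered B6g7 arrays with and without peptide, and 0.608, 0.581 and 0.793 for NOD. Same-numbered BDC2.5 arrays of different strains correlated as well, at 0.777, 0.165 and 0.842 without and 0.577, 0.234 and 0.569 with peptide. For wild-type against untreated BDC2.5 arrays of B6g7 and NOD the values were 0.695 and 0.678 for number 1, and 0.058 and -0.499 for number 2. These values do not show that shared numbers pair treated with untreated arrays. The main fit is unpaired, and the numbers enter only as the replicate block among the alternatives. The alternatives were a replicate block, the low-gradient arrays left out or as a block, quantile scaling, equal medians, log2(intensity + 32), a filter on dim probe sets, other variance models, fewer groups and each array left out.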

Additional observations from a re-analysis of the deposited data

How the results depend on the processing

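With 2 or 3 arrays a group the intervals are wide, and the dim readings of Nr4a2 limit what can be seen of it. The Nr4a1 mean peptide response kept its direction in all 24 alternatives (1.38 to 2.02, adjusted p 0.00496 to 0.125), was 1.87 (0.0197) with the replicate block, and missed the threshold without the low-gradient arrays (1.38) and with the block within each strain (1.87). In B6g7 alone it passed with the block of low-gradient arrays (2.14). Other member calls did not change with the replicate block. The Nr4a1 minus Nr4a2 response was 1.21 without the low-gradient arrays (exact permutation p = 0.0556) and had p = 0.03125 with the replicate block of 64 exact sign flips. Leaving out 1 array at a time gave 1.86 to 2.38 for Nr4a1 in B6g7, 1.71 to 2.02 for its mean response, 1.10 to 1.5 for Nr4a1 minus Nr4a2, -0.15 to 0.44 for its wild-type strain difference and -0.083 to 0.52 for its NOD transgene difference. For 92248_at it gave -0.0024 to 0.26 for the NOD peptide response, -0.065 to 0.096 for the strain difference without peptide, -0.042 to 0.037 for the B6g7 transgene difference and -0.021 to 0.14 for the NOD one. For 92249_g_at it gave -0.041 to 0.039 for the strain difference without peptide and -0.18 to 0.062 for the NOD transgene difference. Signs that turned belonged to differences near 0: for 92249_g_at the strain difference without peptide (-0.023 without the low-gradient arrays, -0.0067 with quantile scaling, -0.0090 with equal medians) and the transgene difference (-0.067 on B6g7 with the replicate block, 0.00021 on NOD with the block of low-gradient arrays), and for 92248_at the wild-type strain difference (0.0095 with quantile scaling) and the transgene difference (with the replicate block -0.22 on B6g7 and -0.20 on NOD, with quantile scaling -0.0023 on NOD). The replicate block joins the low-gradient wild-type arrays numbered 2 with BDC2.5 arrays numbered 2, which are not low-gradient. The cause of the turned signs was not tested. Counts of called probe sets over all alternatives ran from 0 to 10 for the B6g7 peptide response, 0 to 1 for NOD, 0 to 10 for their mean (7 with the replicate block, 3 in the main design), 0 to 91 for strains without peptide, 15 to 156 at 16 h, 0 to 47 in wild-type, 1 to 13 and 0 to 8 for the transgene. The filter on dim probe sets left 6211 and removed both Nr4a2 probe sets, so it gave no value for them.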
